A study of Mus musculus with 6 samples.

Results

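The enzymes that build fatty acids from acetyl-CoA were followed through 17 probe sets, of 22690 on the array, in the epididymal white adipose tissue (WAT) of C57BL/6 mice. They were all the probe sets annotated to exactly one of 9 symbols, namely Acly, Acaca, Acacb, Fasn, Elovl1, Elovl5, Elovl6, Acss2 and Slc25a1. Probe sets were found for 8 of the 9 genes, out of 12393 genes that the annotation names singly. Slc25a1, the mitochondrial citrate carrier, had no probe set with its symbol and was not analysed here. A probe set is a group of short probes that report on one transcript together, and its signal is a brightness on a linear scale, in arbitrary units.

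Tissue was taken at zeitgeber time (ZT) 18, in the dark phase of the light-dark cycle. The control group (n = 3) was left undisturbed, and the TSR group (timed sleep restriction, n = 3) had been kept awake by gentle handling for the first 6 h of the light phase on 5 days. All mice were male and wild-type. Whether an array held RNA of 1 animal or of several pooled is stated neither in the labels nor in the methods. The p-values below therefore reflect the spread among these samples alone. Each array had been scaled to the same trimmed mean signal of 500.2, with medians from 127 to 141. Over probe sets, which are not independent replicates, r was 0.967 to 0.971 for arrays of one group and 0.953 to 0.957 for arrays of different groups.

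De novo lipogenesis begins with citrate that leaves the mitochondrion. In the cytosol ATP citrate lyase (Acly) splits it into acetyl-CoA and oxaloacetate, while acetyl-CoA synthetase (Acss2) makes acetyl-CoA from acetate. Acetyl-CoA carboxylase (Acaca, and Acacb at the mitochondrial surface) turns acetyl-CoA into malonyl-CoA, fatty acid synthase (Fasn) joins these units into palmitate, and the elongases of the Elovl family lengthen fatty acyl chains in the endoplasmic reticulum. In liver and fat the pathway is known for its control by feeding and insulin, largely through the transcription factors SREBP-1c and ChREBP.

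The sequence upstream of 4 members is shown because these genes span the range of responses described below, with Acly and Elovl6 among the members that rose most, Fasn rising little and Elovl5 falling. Each line gives the 250 bases before the annotated start in the RefSeq annotation of mouse build GRCm38.p6, read 5′ to 3′ on the strand of the gene. Capitals mark matches on either strand to a CCAAT box (CCAAT), a GC box (GGGCGG), an E-box (CACGTG) or the core of a sterol regulatory element (TCACNCC). The Acly window lies at chr11:100528001-100528250 on the minus strand, that of Fasn at chr11:120824548-120824797 on the minus strand, that of Elovl6 at chr3:129532136-129532385 on the plus strand and that of Elovl5 at chr9:77917115-77917364 on the plus strand.
Acly: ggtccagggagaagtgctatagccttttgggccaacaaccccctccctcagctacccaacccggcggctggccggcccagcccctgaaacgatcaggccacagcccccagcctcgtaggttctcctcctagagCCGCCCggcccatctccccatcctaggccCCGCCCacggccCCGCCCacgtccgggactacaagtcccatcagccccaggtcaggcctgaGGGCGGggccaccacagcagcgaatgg
Fasn: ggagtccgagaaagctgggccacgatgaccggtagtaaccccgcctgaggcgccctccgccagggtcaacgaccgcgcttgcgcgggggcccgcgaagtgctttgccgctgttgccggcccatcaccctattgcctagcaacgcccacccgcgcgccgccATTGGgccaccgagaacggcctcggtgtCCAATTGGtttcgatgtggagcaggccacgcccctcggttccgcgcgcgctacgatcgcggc
Elovl6: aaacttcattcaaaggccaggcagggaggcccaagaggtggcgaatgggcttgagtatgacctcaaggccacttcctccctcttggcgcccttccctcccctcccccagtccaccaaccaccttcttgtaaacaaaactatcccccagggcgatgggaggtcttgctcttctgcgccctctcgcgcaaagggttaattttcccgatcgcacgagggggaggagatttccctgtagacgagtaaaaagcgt
Elovl5: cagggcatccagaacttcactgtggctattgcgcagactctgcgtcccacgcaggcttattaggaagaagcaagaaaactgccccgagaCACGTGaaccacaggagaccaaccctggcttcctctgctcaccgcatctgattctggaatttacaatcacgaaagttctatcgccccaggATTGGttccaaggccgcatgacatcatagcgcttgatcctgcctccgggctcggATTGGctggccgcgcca

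The Acly window held 4 GC boxes, and that of Fasn held 3 CCAAT boxes, of which 1 pair overlapped on opposite strands. In the Elovl5 window there were 2 CCAAT boxes and 1 E-box, and in that of Elovl6 none of the 4 motifs. Among all 32851 promoters of the same length, 33.8% held a CCAAT box, 32.7% a GC box, 6.02% an E-box and 13.4% the sterol element core. The other members with a probe set differed too: Acaca had none of these motifs, Acacb 1 CCAAT box, Acss2 4 GC boxes and 1 CCAAT box, and Elovl1 5 GC boxes and 1 CCAAT box at its first annotated start and 2 GC boxes at the other. The letters of the sterol element core were in none of the members' windows, which says only that they are not in these 250 bases.

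Most of these enzymes had higher signals after TSR. The size of the rise differed between genes and also between probe sets of the same gene, such as those of Acly (log2 fold changes 1.20, 0.90 and 3.12). Differences between enzymes therefore cannot be told apart from differences between probe sets. Of the 17 probe sets 15 passed the filter on low signals and were tested with limma, with adjustment over all 14707 probe sets tested. Among the 15, 11 were called higher, 2 lower and 2 did not pass at an adjusted p of 0.05. Across the array 46.6% of probe sets were called in either direction, 25.6% higher and 21.0% lower. After centring each array on its median, the array gave 2434 calls higher and 4420 lower instead of 3768 and 3082, and the members 9 and 2. In 5 member probe sets the call was higher and the mean signal at least 2-fold up, against 2.15% of all probe sets by both criteria. These were the Acaca probe set, which passed the filter only through its TSR signals, and probe sets of Acly and Elovl6 alone. The median log2 fold change was 0.72 over the 15 probe sets and 0.04 over all those tested. In whole tissue, fewer cells of a type and less RNA per cell cannot be told apart.

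With each gene represented by its brightest probe set, 6 of 8 enzymes were called higher (Acly, Acaca, Acacb, Fasn, Elovl6 and Acss2), 1 lower (Elovl5) and 1 did not pass (Elovl1). By the same rule 47.0% of 8619 genes were called in either direction, 24.0% higher and 23.0% lower. All 3 TSR signals lay above all 3 control signals in 13 of the 15 probe sets and below them in the other 2, compared with 31.4% above and 25.2% below across the array. The filter had admitted each probe set by its mean over both groups, and the Acaca probe set passed only through its TSR signals. Of the 14 probe sets whose control and TSR means both lay above the filter, 10 were called higher and 2 lower, with a median log2 fold change of 0.71.

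**Figure D1:**
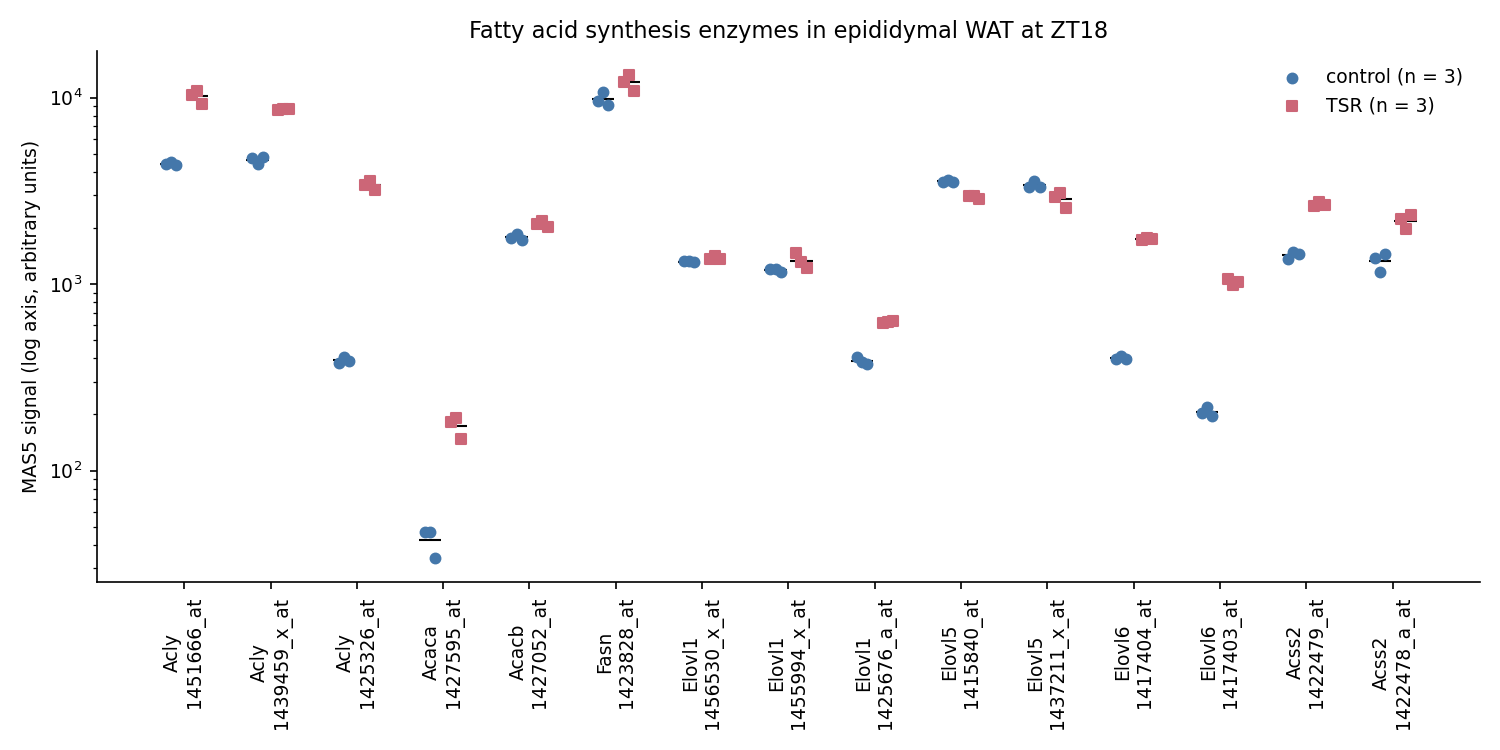
MAS5 signal of the 15 tested probe sets (log axis, arbitrary units) on each of the 3 control arrays (circles) and the 3 TSR arrays (squares), with black lines at the group means. The groups do not overlap in any of the 15, and the Elovl5 probe sets are the 2 in which the TSR arrays lie below the control arrays.

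At the head of the pathway, the brightest Acly probe set (1451666_at) read 4378, 4494 and 4340 in control replicates 1 to 3 and 10359, 10887 and 9173 in TSR replicates 1 to 3. Its mean rose from 4404 ± 80.5 (SD, n = 3) to 10140 ± 877 (n = 3), a log2 fold change of 1.20 (limma adjusted p = 2.23e-06). The groups were far apart, with the lowest TSR array above 2 times the control mean. A second bright probe set (1439459_x_at), whose suffix marks probes that may match other sequences as well, read 4716, 4378 and 4793 in control and 8531, 8664 and 8694 in TSR, a log2 fold change of 0.90 (limma adjusted p = 2.23e-06).

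Another probe set for Acly (1425326_at) gave the largest change of any member. It read 378, 404 and 388 in control and 3381, 3560 and 3210 in TSR, so that the mean was 8.68-fold higher and the log2 fold change was 3.12 ± 0.05 (SE, limma adjusted p = 3.29e-09). It stood at rank 34 of the 14707 probe sets tested, counted from the largest rise. The 3 Acly probe sets thus rose together but by different amounts. The remaining Acly probe sets were dim and were not tested. The first (1438389_x_at) averaged 13.9 ± 10.2 in control and 8.42 ± 8.40 in TSR with overlapping values, and the other (1439445_x_at) lay at 1, the lowest signal of the table, on every TSR array and between 1.78 and 13.5 in control. On average both lay below the 25th percentile of the arrays (20.9 to 25.3), where no level can be read.

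Acss2, which supplies acetyl-CoA from acetate, rose on both of its probe sets. The brighter one (1422479_at) read 1362, 1487 and 1453 in control and 2625, 2763 and 2643 in TSR, a log2 fold change of 0.90 (limma adjusted p = 2.24e-06). The other (1422478_a_at) read 1373, 1164 and 1455 in control and 2231, 1970 and 2344 in TSR, a log2 fold change of 0.72 (limma adjusted p = 0.000284). Both kept this call in every alternative fit.

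The carboxylase probe sets differed in brightness as well as in the size of their change. Acaca, the cytosolic isoform whose malonyl-CoA feeds chain building, had a low signal of 46.6, 46.6 and 34.1 in control and 182, 191 and 147 in TSR. Its mean rose from 42.4 ± 7.22 to 174 ± 23.5, and the log2 fold change of 2.04 had a wide 95% interval of 1.64 to 2.44 (limma adjusted p = 3.45e-05). The control signal was 1.91 times the 25th percentile, and its mean log2 signal of 5.39 lay below the filter at 5.45, so that the probe set was tested only because of its TSR signals. With no filter the call was kept (adjusted p = 0.000238).

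Acacb, whose malonyl-CoA is known to restrain fatty acid import into mitochondria, read 1757, 1858 and 1713 in control and 2094, 2181 and 2015 in TSR (1427052_at). The log2 fold change was 0.24 (limma adjusted p = 0.0042), and it was 0.13 and did not pass after median centring (adjusted p = 0.111). The TSR arrays lay above the control arrays without overlap, but by a small margin.

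Fasn (1423828_at), the synthase itself, was among the brightest probe sets on the array and rose little. It read 9598, 10696 and 9161 in control and 12133, 13221 and 10792 in TSR, with means of 9818 ± 791 and 12049 ± 1216. The highest control array and the lowest TSR array lay close together. The log2 fold change was 0.29 (95% interval 0.10 to 0.48, limma adjusted p = 0.0189). This call was lost in 8 of 15 alternative fits, namely the methods' own test (adjusted p = 0.114 on linear and 0.108 on log2 signals), limma with no trend (0.0515), median centring (0.149) and the removal of control replicate 1 (0.0650), control replicate 3 (0.0684), TSR replicate 1 (0.0606) or TSR replicate 2 (0.0595). After quantile normalization the log2 fold change was 0.60 (adjusted p = 6.47e-06).

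The brightest probe sets as a whole moved downward. Among the 217 tested probe sets with a mean log2 signal of at least 13 the median log2 fold change was −0.34, with 84.8% called lower and 2.30% higher, and the Fasn probe set lay at 13.40. Among the 578 with a mean log2 signal from 12 to 13, which held the pair of bright Acly probe sets, the median was −0.18. Below a log2 signal of 8 it was 0.09. The part of this dependence on brightness in the values for Fasn and Acly was not tested.

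**Figure D2:**
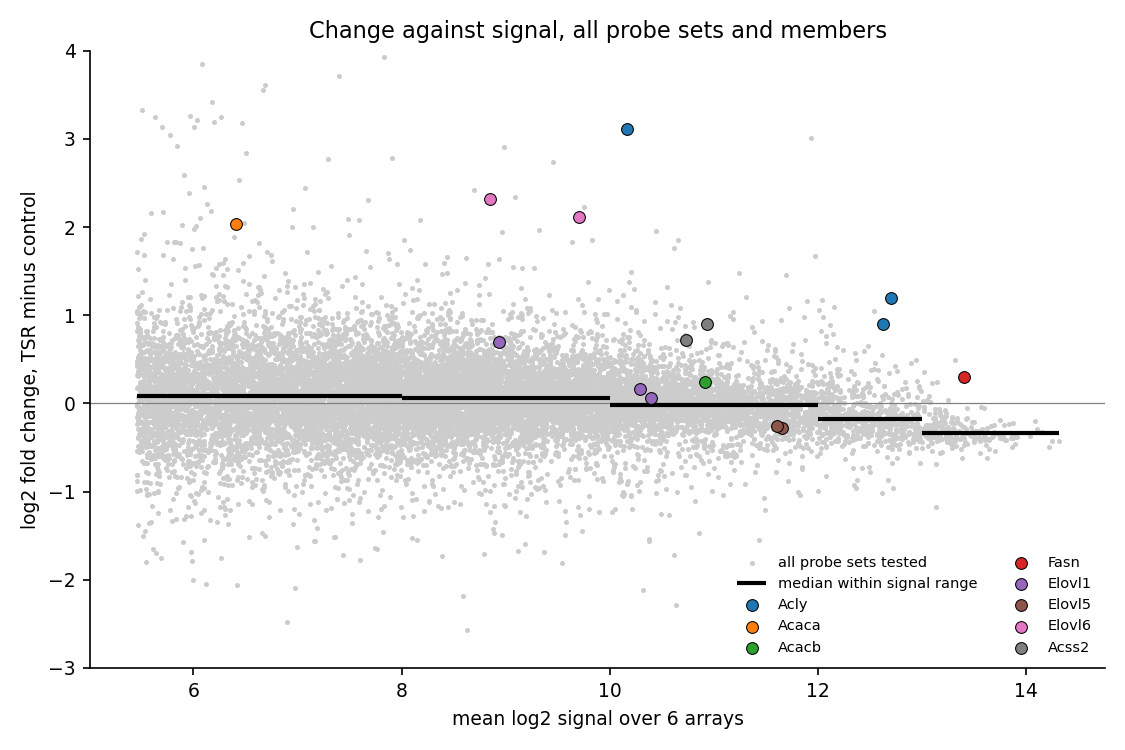
Log2 fold change, TSR minus control, against the mean log2 signal over 6 arrays for all tested probe sets (grey) and for the 15 member probe sets (coloured by gene), with black lines at the median of 5 signal ranges. The medians run from 0.09 in the dimmest range to −0.34 in the brightest, and Fasn lies above the median of its range; 18 probe sets lie outside the plotted range.

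The elongases went in different directions. Elovl6, which extends palmitate to stearate, rose on both probe sets with little scatter. The first (1417404_at) read 398, 413 and 397 in control and 1720, 1768 and 1738 in TSR, a 4.33-fold higher mean and a log2 fold change of 2.11 (limma adjusted p = 1.21e-08). The second (1417403_at) read 205, 220 and 195 in control and 1066, 990 and 1031 in TSR, a 4.98-fold higher mean and a log2 fold change of 2.32 (limma adjusted p = 6.62e-08). They stood at ranks 58 and 50 of all probe sets tested, and both calls were kept in every alternative fit.

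Elovl5, an elongase of polyunsaturated fatty acids, fell on both probe sets. One (1415840_at) read 3519, 3623 and 3544 in control and 2979, 2982 and 2874 in TSR, a log2 fold change of −0.27 (limma adjusted p = 0.00066). The other (1437211_x_at) read 3309, 3564 and 3328 in control and 2931, 3089 and 2569 in TSR, a log2 fold change of −0.25 (limma adjusted p = 0.0159). The fall was small but without overlap. The second call was lost in the methods' own test (adjusted p = 0.0838 on linear and 0.0944 on log2 signals) and, barely, in limma with no trend, and the first was kept in every fit.

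For Elovl1, which makes very long saturated and monounsaturated chains, the 3 probe sets gave different answers. The brightest (1456530_x_at) read 1326, 1322 and 1305 in control and 1365, 1405 and 1367 in TSR, a log2 fold change of 0.07 with a 95% interval of −0.03 to 0.16 (limma adjusted p = 0.221), and the value was −0.044 after median centring. The next (1455994_x_at) read 1202, 1196 and 1153 in control and 1465, 1309 and 1224 in TSR, a log2 fold change of 0.17 (limma adjusted p = 0.0655). Neither passed. The dimmest (1425676_a_at) read 407, 380 and 372 in control and 617, 626 and 636 in TSR and was called higher, with a log2 fold change of 0.70 (limma adjusted p = 2.85e-05). When the probe sets of a gene were averaged instead, Elovl1 passed with a log2 fold change of 0.31 (adjusted p = 0.000382), whereas the calls of the other 7 genes were as with the brightest probe set.

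**Figure D3:**
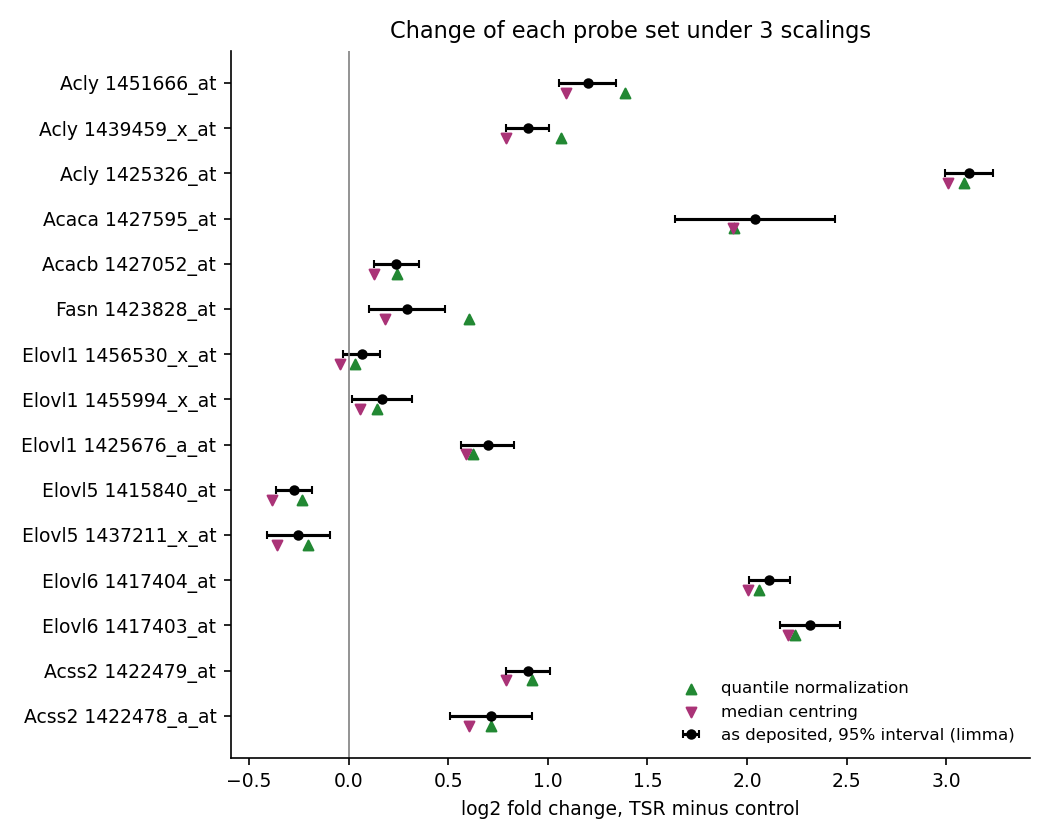
Log2 fold change, TSR minus control, of the 15 tested probe sets with its 95% interval from limma on the deposited signals (black), and the value after quantile normalization (green) and after median centring (purple). Acly, Acaca, Elovl6 and Acss2 lie well above 0 under all 3 scalings, Elovl5 lies below 0 under all 3, and Fasn moves from 0.18 after median centring to 0.60 after quantile normalization.

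Ratios between members on the same array are free of any constant factor applied to that array, but not of a scaling that depends on brightness. For 5 pairs of enzymes, the log2 ratio of the brightest probe sets was compared between groups with an exact permutation test, two-sided, in which 3 against 3 samples cannot go below 0.1. Every pair reached that smallest value (exact p = 0.1, adjusted over the 5 pairs 0.1), with no overlap between groups. Their calls therefore cannot pass a threshold of 0.05, and only sizes are given. The ratio of the citrate carrier to Acly could not be computed without Slc25a1.

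Elovl5 relative to Elovl6 shifted most, from a mean log2 ratio of 3.14 ± 0.01 (SD, n = 3) in control to 0.76 ± 0.03 in TSR. Elovl1 relative to Elovl6 went from 1.71 ± 0.03 to −0.34 ± 0.01. In the carboxylases, Acacb relative to Acaca went from 5.40 ± 0.22 to 3.60 ± 0.15, a change of −1.80. For synthase and carboxylase, Fasn relative to Acaca went from 7.87 ± 0.19 to 6.12 ± 0.07, a change of −1.74 that was −1.33 after quantile normalization. Between the sources of acetyl-CoA the shift was small with these probe sets, Acss2 relative to Acly going from −1.62 ± 0.06 to −1.92 ± 0.11. Its size depends on the Acly probe set taken, since the others tested changed by 0.90 and 3.12 on the log2 scale. With the probe sets of each gene averaged, the log2 fold change was 0.81 for Acss2 and 1.74 for Acly. Only the changes of these ratios can be read, since different probe sets do not share a scale, and those with Acaca rest on its low control signal.

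Around the enzymes, 5 lists of pathway genes held 63 genes tested by their brightest probe set. Of these 31 were called higher, 12 lower and 20 did not pass, with a median log2 fold change of 0.21, against 0.01 over all 8619 genes and 0.60 over the 8 enzymes. By the same rule 24.0% of all these genes were called higher and 23.0% lower, and the lists below stand beside those shares. After median centring 19 were higher and 18 lower. Median centring also turned the balance of the whole array to more calls lower than higher, as given above.

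Among the 17 tested regulators of lipogenesis, 11 were called higher, 1 lower and 5 did not pass, with a median of 0.31, and after median centring 6 were higher and 1 lower. The list was not split by whether a gene promotes or restrains lipogenesis, so these counts give no direction for the pathway. Mid1ip1, a partner that activates acetyl-CoA carboxylase, read 1953, 2040 and 2022 in control and 5447, 5724 and 5381 in TSR, a log2 fold change of 1.46 (limma adjusted p = 9.09e-08). Mlxipl, which encodes ChREBP, read 2064, 2024 and 1986 in control and 3600, 3736 and 3344 in TSR, a log2 fold change of 0.81 (limma adjusted p = 4.72e-06). Its DNA-binding partner Mlx rose by 0.93 on the same scale (1.30 on its dimmer probe set) and the pseudokinase Trib3 by 0.85 (0.66 on its dimmer one).

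Srebf1, which encodes SREBP-1, changed much less. It read 5102, 5589 and 5143 in control and 6137, 6533 and 5971 in TSR, a log2 fold change of 0.24 (limma adjusted p = 0.0072) that was 0.13 and did not pass after median centring (adjusted p = 0.167). Thrsp, a lipogenic nuclear protein related to Mid1ip1, was called in opposite directions by its probe sets. The brighter fell from a mean of 14489 to 12237 with overlapping groups (log2 fold change −0.24, limma adjusted p = 0.0416) and was called higher after quantile normalization (0.11, adjusted p = 0.0268), and the dimmer rose from 8589 to 12135 (0.50, limma adjusted p = 0.000199).

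Of 13 tested genes listed around the supply of NADPH and citrate, 7 were called higher, 3 lower and 3 did not pass, with a median log2 fold change of 0.24. After median centring the balance turned, as it did over the whole array, with 5 higher and 6 lower. After quantile normalization 7 were higher and 1 lower. Malic enzyme (Me1), a source of cytosolic NADPH, read 3268, 3170 and 3036 in control and 5464, 6112 and 5200 in TSR, a log2 fold change of 0.82 (limma adjusted p = 1.76e-05). The mitochondrial dicarboxylate carrier Slc25a10 rose by 0.86 on the same scale (1.71 on its dimmer probe set) and the oxoglutarate carrier Slc25a11 by 0.41. The carnitine-acylcarnitine carrier Slc25a20, counted among the 3 lower calls, serves the import of fatty acids for oxidation. It fell by 0.47 on the log2 scale on its brighter probe set, while the other did not pass (−0.11, limma adjusted p = 0.187).

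Among 13 tested genes of the elongation cycle and the desaturases, of 17 measured, 5 were called higher, 4 lower and 4 did not pass, with a median log2 fold change of 0.07. The counts were 4 and 4 after median centring (median −0.037) and 5 and 1 after quantile normalization. For the elongase Elovl3, 1 of the 5 higher calls, the mean was 23.7 ± 2.77 in control and 85.9 ± 2.14 in TSR. Its control signals lay about the 25th percentile and it passed the filter only through its TSR signals, so no fold is given. Tecr, the reductase of the elongation cycle, rose by 0.92 on the log2 scale. Scd2, a desaturase that introduces a double bond into stearate and palmitate, read 2772, 2809 and 2845 in control and 6116, 6807 and 6076 in TSR, a log2 fold change of 1.17 (limma adjusted p = 8.47e-07). Its dimmer probe set rose by 2.30 on the log2 scale. The related gene Scd1 was called in opposite directions, as the very bright probe set fell from a mean of 17819 to 12645 (−0.50, limma adjusted p = 0.00513), which was −0.11 and did not pass after quantile normalization (adjusted p = 0.0656), whereas the dimmer one rose from 3207 to 4198 (0.39, limma adjusted p = 0.000144).

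In the handling of acyl-CoA and acetyl-CoA, 5 of 12 tested genes were called higher, 3 lower and 4 did not pass, the median log2 fold change being 0.09. Median centring turned the balance, as over the whole array, to 3 higher and 4 lower (median −0.018). Acot2, a mitochondrial acyl-CoA thioesterase, rose by 1.20 on the log2 scale, from a mean of 46.0 ± 13.1 to 103 ± 4.47. Aacs, which activates acetoacetate in the cytosol, rose by 0.32, and by 0.94 on its dimmer probe set. Dbi, the acyl-CoA binding protein, had a log2 fold change of −0.32 (limma adjusted p = 0.00277) that was 0.04 and did not pass after quantile normalization. In the separate fatty acid synthesis of the mitochondrion, 4 of 9 tested genes were called higher, 1 lower and 4 did not pass, with a median of 0.12. This balance also turned, to 1 higher and 3 lower after median centring and to 1 higher and 2 lower after quantile normalization. There the lipoyltransferase Lipt1 rose by 0.43. The log2 fold change was 0.41 for the malonyl-CoA synthetase Acsf3, which stands in both lists, and 0.21 for the enoyl reductase Mecr, and neither passed after quantile normalization or median centring. The reductase subunit H2-Ke6 fell by 0.20 on the log2 scale, a call that was lost in the methods' own test on linear signals (adjusted p = 0.0554).

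**Figure D4:**
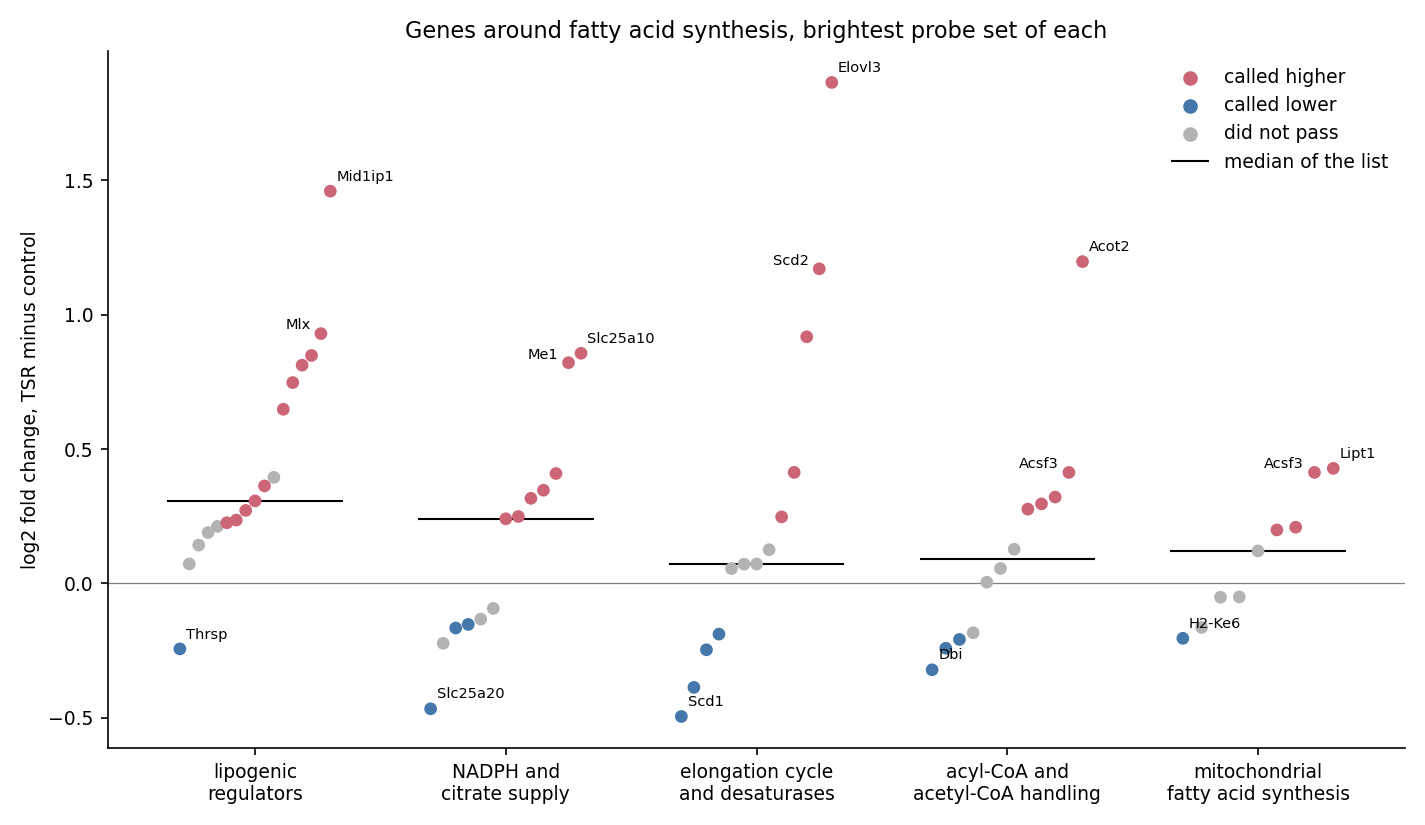
Log2 fold change, TSR minus control, of the tested genes of 5 pathway lists, each by its brightest probe set, coloured by call, with black lines at the list medians and the extreme genes named. The regulators have the highest median (0.31) and the elongation and desaturase list the lowest (0.07), and points lie on both sides of 0 in every list. The Elovl3 point rests on control signals about the 25th percentile of the arrays.

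Markers of other cell types moved with the groups. All 28 measured hepatocyte markers lay above control on every TSR array, against 31.4% of all tested probe sets. Their summed signal was between 815 and 905 in control and between 15674 and 16232 in TSR. Of the 28, 15 passed the filter and were tested, and all 15 were called higher, against 24.0% of all genes. Several of these, Apoa1 included, passed the filter only through their TSR signals. Alb, encoding albumin, read 128, 98.0 and 161 in control and 3178, 3360 and 3077 in TSR, and Apoa1 35.6, 43.9 and 12.5 in control and 729, 756 and 810 in TSR. Hepatocytes are known to use the same synthesis enzymes. The part of the hepatocyte markers in the rise of Acly, Acaca, Elovl6, Acss2 and the other members was not tested.

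The tissue carried the markers of adipocytes on all 6 arrays. The summed signal of 14 adipocyte markers was 120320 to 140756 in control and 104501 to 121026 in TSR, and 4 were called higher, 7 lower and 3 did not pass. The 7 called lower all had a mean log2 signal of at least 13, where 84.8% of tested probe sets were called lower. Adipoq had a log2 fold change of −0.46, Fabp4 of −0.43 and Lep, encoding leptin, of 0.65. The part of brightness in the adipocyte calls and in their sum was not tested. Of 12 macrophage markers 11 were called lower and none higher, including Adgre1 (−0.57) and Cd68 (−0.65), and their sum went from between 28477 and 29465 to between 19249 and 19566.

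Smaller lists had calls in both directions, in endothelial cells (3 of 8 tested higher, 3 lower), progenitors (1 of 5 higher, 2 lower), mesothelium (1 of 5 higher, 2 lower) and lymphocytes (1 of 3 higher, 1 lower). Over all genes 24.0% were called higher and 23.0% lower, and lists this small cannot be told apart from those shares. The lymphocyte marker called higher, Ms4a1, passed the filter only through its TSR signals, as did Cd79b, which was not called. Of 5 brown adipocyte markers 4 were tested and 3 were higher, of which Dio2 and Elovl3 passed the filter only through their TSR signals, and the defining marker Ucp1 averaged 1.95 in control and 2.09 in TSR, at the floor. None of the 4 measured markers of epididymal epithelium passed the filter on low signals. Their summed signal was 27.7 to 44.2 in control and 53.7 to 74.0 in TSR. Among the 4, 1 lay above control on every TSR array and 2 lay below the 25th percentile on all arrays. For skeletal muscle and exocrine pancreas, 7 markers each were measured. In each list 1 was tested and was higher (Acta1 and Cela1), the other 6 lay below the filter, and among those Mylpf, Myh1 and Ctrb1 were lower on every TSR array than on any control array. In the control probe sets for RNA integrity, the log2 difference between 5′ and 3′ signal went from −1.22 to −0.67 for beta-actin, from −0.52 to 0.13 for Gapdh and from −5.15 to −4.82 for pyruvate carboxylase, without overlap (exact p = 0.1 each). It went from −3.99 to −2.30 for the transferrin receptor (exact p = 0.2) and the other way for 18S RNA, from −0.39 to −0.46 (exact p = 0.5). The part of these shifts in the values of the enzymes was not tested.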

How the data were processed

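RNA of epididymal WAT was hybridised to Affymetrix mouse expression arrays, 1 per sample. The authors computed MAS5 signal intensity values in Affymetrix Expression Console (version not given in the sources used here), and the deposited table holds them on a linear scale with each array scaled to 1 target. The labels state Trizol extraction of frozen tissue, the methods a lipid tissue kit.

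Here the deposited signals were taken to log2. Expression calls were not used. Instead 64 control probe sets and, ranked by their average over the arrays, the dimmest 35% of the rest (under 5.45) were dropped. The 14707 that stayed were fitted with limma 3.58.1 in R 4.3.3 (eBayes with intensity trend, two-sided), with Benjamini-Hochberg adjustment and a threshold of 0.05. Folds are ratios of mean signals. The computation was tested on simulated data. Precision is limited by the small number of arrays.

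The members and gene lists were chosen with earlier results of these data known. Named were all member probe sets, up to 4 called genes per pathway list with the largest change, Srebf1, Mlxipl, Thrsp, Mid1ip1, Scd1, Scd2, Me1, and 7 cell type markers. Which other probe set of Thrsp, Scd1, Slc25a20, Mlx, Trib3, Slc25a10, Scd2 and Aacs to give was decided after their values were seen. Probe sets were named from the platform annotation. As alternatives, the methods' own test (Student's) was run, and limma with no trend, 2 other scalings, 3 other treatments of low signals, a replicate block, each array left out and, for genes, the mean of probe sets.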

Additional observations from a re-analysis of the deposited data

How the results depend on the processing

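Acly, Acaca, Elovl6, Acss2, the dimmest Elovl1 probe set (1425676_a_at) and the brightest Elovl5 probe set (1415840_at) kept their direction and their call in every alternative that gave a value. Acaca fell below the filter when the lowest 50% of probe sets were left out. Of the 15 member probe sets, 1 was called lower, instead of 2, in the methods' own test, on linear as on log2 signals, and in limma with no trend. The count of pathway genes called lower, 12 in the report, was 6 in the methods' own test with linear signals, 7 with log2 signals and 7 after quantile normalization, between 7 (without TSR replicate 1) and 11 with 1 array left out, 15 with the replicate block and 18 after median centring. Median centring gave 2434 probe sets higher across the array instead of 3768 and 19 pathway genes higher instead of 31, and turned the log2 fold change of the brightest Elovl1 probe set (1456530_x_at) to −0.044. Quantile normalization moved the median of all tested probe sets from 0.04 to −0.01 and median centring to −0.07. With 1 array left out, between 10 and 12 member probe sets were called higher and 2 lower. The Elovl1 probe set 1455994_x_at passed without TSR replicate 3 (adjusted p = 0.0198), and its log2 fold change of 0.17 went down to 0.097 without TSR replicate 1 (adjusted p = 0.222), and 1456530_x_at passed in the methods' own test (0.0426 on linear and 0.0412 on log2 signals). The causes of these changes were not tested.

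The labels number the replicates in both groups, but nothing says that a number marks a shared day or animal. Deviations from the group means correlated by 0.02, 0.19 and 0.17 between samples with the same number, and 4 of 6 samples correlated best with their own number. These values do not settle whether the numbers mark pairs. The main fit had no pairing because no source states one. With the replicate block 12 member probe sets were called higher and 2 lower, the added one being Elovl1 1455994_x_at (adjusted p = 0.0252), and 4043 and 3391 probe sets across the array. Of the pathway genes 32 were then higher and 15 lower. In the 15 tested member probe sets TSR replicate 3 gave the lowest TSR signal in 8 and control replicate 3 the lowest control signal in 9.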
